A study of Mus musculus with 20 samples.

Results

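Immediate early genes are the genes that a cell transcribes within minutes of a stimulus, without first having to make new protein. In neurons, calcium entry and growth factor receptors act through kinases on transcription factors that are already bound, among them CREB and serum response factor, and the resulting transcripts are short-lived, so their levels reflect recent activity. The products are largely transcription factors that start a later wave of genes, with a few, such as Arc, that act at the synapse itself. In the preoptic area (POA), the region of the rostral hypothalamus that holds many gonadotropin-releasing hormone (GnRH) neurons, Fos is widely used as a marker of neurons that responded to a social or sexual stimulus.

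Of the 25239 genes in the count table, 10 were chosen by symbol as members of this class. They were Fos, Fosb and Junb, which encode subunits of the AP-1 transcription factor; Egr1 and Egr2, zinc-finger transcription factors; Nr4a1, an orphan nuclear receptor; Npas4, a neuronal transcription factor induced by calcium entry; Arc, a postsynaptic protein that acts in receptor trafficking; Btg2, an antiproliferative cofactor of mRNA deadenylation; and Ier2, a nuclear protein of the early response. Btg2 was included because it was called in control mice, and covariation across mice was part of the choice, so the control housing values and the correlations below are descriptions without a test. All 10 genes passed the filter on low counts in every comparison.

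Bulk RNA-seq was performed on the POA of 20 male mice, with 5 mice in each of 4 groups. The groups were control mice housed with a same-sex partner (control SS), control mice housed with an opposite-sex partner (control OS), and dnFGFR mice under the same housing (dnFGFR SS and dnFGFR OS). The dnFGFR mice carried a transgene for a truncated FGF receptor 1 without its kinase domain, driven by a rat GnRH promoter and therefore aimed at GnRH neurons alone, a small minority of the cells in such a sample. Breeders of the dnFGFR line were homozygous for the transgene, and controls descended from matings of heterozygous siblings. Housing began at PND20 and tissue was collected at PND320, after 300 days, under isoflurane and decapitation. OS-housed males bred freely and lived with their pups, so a female partner and litters cannot be told apart as conditions. Each library was labelled as a separate mouse. In bulk tissue, fewer expressing cells and less RNA per cell cannot be told apart.

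Reads on genes ranged from 32353578 to 39871353 per mouse. dnFGFR OS replicate 5 had reads on 18416 genes, and the other mice on 19101 to 19659. According to the dates recorded by the study, control mice were sacrificed in June and July and dnFGFR mice in May, except dnFGFR SS replicate 4, which was sacrificed alone in November. Genotype and date therefore cannot be told apart. Summed levels of preoptic and hypothalamic neuron markers (Esr1, Hmx2, Hmx3, Moxd1, Sim1 and Gal) lay between 13 and 27.7 CPM (read counts scaled to library size), and those of 7 striatal medium spiny neuron markers between 2037 and 4056 CPM. No marker of either list was below 0.1 CPM in all mice. The sums rank marker lists and not cell numbers, since the genes differ in length and level.

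The promoters of Btg2 and Junb, which had the largest housing difference in control and in dnFGFR mice, and of Fos, the most widely used of the class, are shown to place the CREB motifs that the class is known for. Each sequence is the 180 bases directly before the annotated start of the gene, 5′ to 3′ on the gene's strand, from RefSeq on GRCm38.p6. Capitals mark the CREB half-site TGACG on the printed strand, the full cAMP response element TGACGTCA, and the TATA box TATAAA. Fos is at chr12:85473710-85473889 (plus strand), Junb at chr8:84978749-84978928 (minus strand) and Btg2 at chr1:134079156-134079335 (minus strand).
Fos: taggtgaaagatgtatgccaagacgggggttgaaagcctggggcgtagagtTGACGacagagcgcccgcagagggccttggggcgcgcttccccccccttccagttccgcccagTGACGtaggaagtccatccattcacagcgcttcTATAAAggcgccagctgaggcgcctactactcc
Junb: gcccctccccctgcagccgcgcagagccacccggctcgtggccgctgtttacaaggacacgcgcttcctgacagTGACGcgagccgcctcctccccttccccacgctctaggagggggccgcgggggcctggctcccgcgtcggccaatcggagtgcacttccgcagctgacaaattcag
Btg2: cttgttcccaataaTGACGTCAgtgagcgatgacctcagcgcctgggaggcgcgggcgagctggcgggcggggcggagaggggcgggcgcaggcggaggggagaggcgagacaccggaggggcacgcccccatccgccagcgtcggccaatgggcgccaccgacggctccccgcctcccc

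Promoter sequences were matched for 7 of the 10 genes (Egr1, Arc and Ier2 were not matched), and motifs were searched on both strands in the 250 bases before the start. For Fosb, Egr2, Nr4a1 and Npas4, the start used was not the outer end of the annotated gene, and their sequences are not printed. The half-site TGACG was found in 6 of the 7, namely Fos, Fosb, Junb, Nr4a1, Npas4 and Btg2, and in 17.9% of 27025 promoters. The full element TGACGTCA was found in Btg2, where it lay 166 to 159 bases before the start and overlapped a half-site on each strand, and in 1.62% of all promoters. Fos held half-sites from 129 to 125 and from 66 to 62 bases before the start, and a TATA box from 33 to 28 bases before it. TATAAA was present in 13% of all promoters. Neither the AP-1 motif TGANTCA (6.87% of all promoters) nor the serum response element (1.4%) was found in the 7 windows. Sites farther upstream, variants of these motifs and the genes not matched were outside the search. Junb and Ier2 lie 314 kb apart on chromosome 8. Egr2 overlaps the gene Gm32255, and the sources used here do not say how reads in the overlap were counted.

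In control mice, most of the immediate early genes were lower with an opposite-sex partner. The log2 fold change (OS minus SS) was below 0 for 8 of the 10 genes, where 49.1% of the 17004 genes tested were below 0. The median over the 10 genes was -0.43, beside 0.0021 over all genes. Btg2 had the largest difference and was the 1 gene of the 10 with an edgeR adjusted p below 0.1, beside 0.124% of all genes tested, a count that the choice of Btg2 fixed. An unadjusted p below 0.05 was reached by 7 of the 10, Btg2 among them, beside 7.2% of all genes. The genes were chosen with these data known, so this count is a description and not a test.

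Btg2 levels in control SS mice were 12.4, 20.6, 26.9, 21 and 29.3 CPM. In control OS mice they were 9.94, 9.08, 11.4, 9.96 and 13.8 CPM. The groups met in 1 place, since control SS replicate 1 lay below control OS replicate 5. The mean was 22 ± 6.56 CPM for SS and 10.8 ± 1.87 CPM for OS housing (SD, n = 5 mice each), a log2 fold change of -1.02 (SE 0.183).

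Among the AP-1 subunits, the means of Fos and Junb were lower in OS mice and that of Fosb was not. Fos was at 24.6, 39.9, 36.4, 33.0 and 38.0 CPM in control SS mice and at 24.6, 18.3, 22.2, 21 and 30.3 CPM in control OS mice (log2 fold change -0.56, SE 0.135). Control SS replicate 1 was again the low mouse of its group, and 4 of the 5 SS mice lay above every OS mouse. Junb was at 68.3, 82.3, 62.6, 66.2 and 67.9 CPM in control SS mice and at 46.2, 43.3, 42.5, 45.9 and 71.9 CPM in control OS mice (log2 fold change -0.48, SE 0.125). Control OS replicate 5 reached the SS range and the other 4 OS mice lay below it. Fosb, from 21.6 to 32.3 CPM in SS and from 22.9 to 33.2 CPM in OS mice, differed by 0.09 (SE 0.109).

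The EGR factors also differed from each other. Egr1 had the highest level per exon length of the 10 genes, at 56.0 ± 8.14 CPM per kb in control SS and 56.2 ± 6.72 in control OS mice (SD, n = 5 each), and its log2 fold change was 0.01 (SE 0.0955). Egr2, at 3.59 ± 0.879 and 2.55 ± 0.951 CPM per kb, had a log2 fold change of -0.49 (SE 0.214). The values for the remaining genes were -0.19 (SE 0.146) for Arc, -0.34 (SE 0.148) for Nr4a1, -0.61 (SE 0.276) for Npas4 and -0.39 (SE 0.168) for Ier2. Choroid plexus markers differed between the same mice. The summed level of Ttr, Kl, Folr1 and Clic6 had a median of 126 CPM in control SS mice and of 1396 CPM in control OS mice. All 4 log2 fold changes were above 0 (median 1.45), and 2 of the 4 had an unadjusted p below 0.05, beside 7.2% of all genes. The part of choroid plexus in the differences of the immediate early genes was not tested. For none of the 10 genes were all OS mice below all SS mice, a separation seen in 0.759% of all genes tested.

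**Figure D1:**
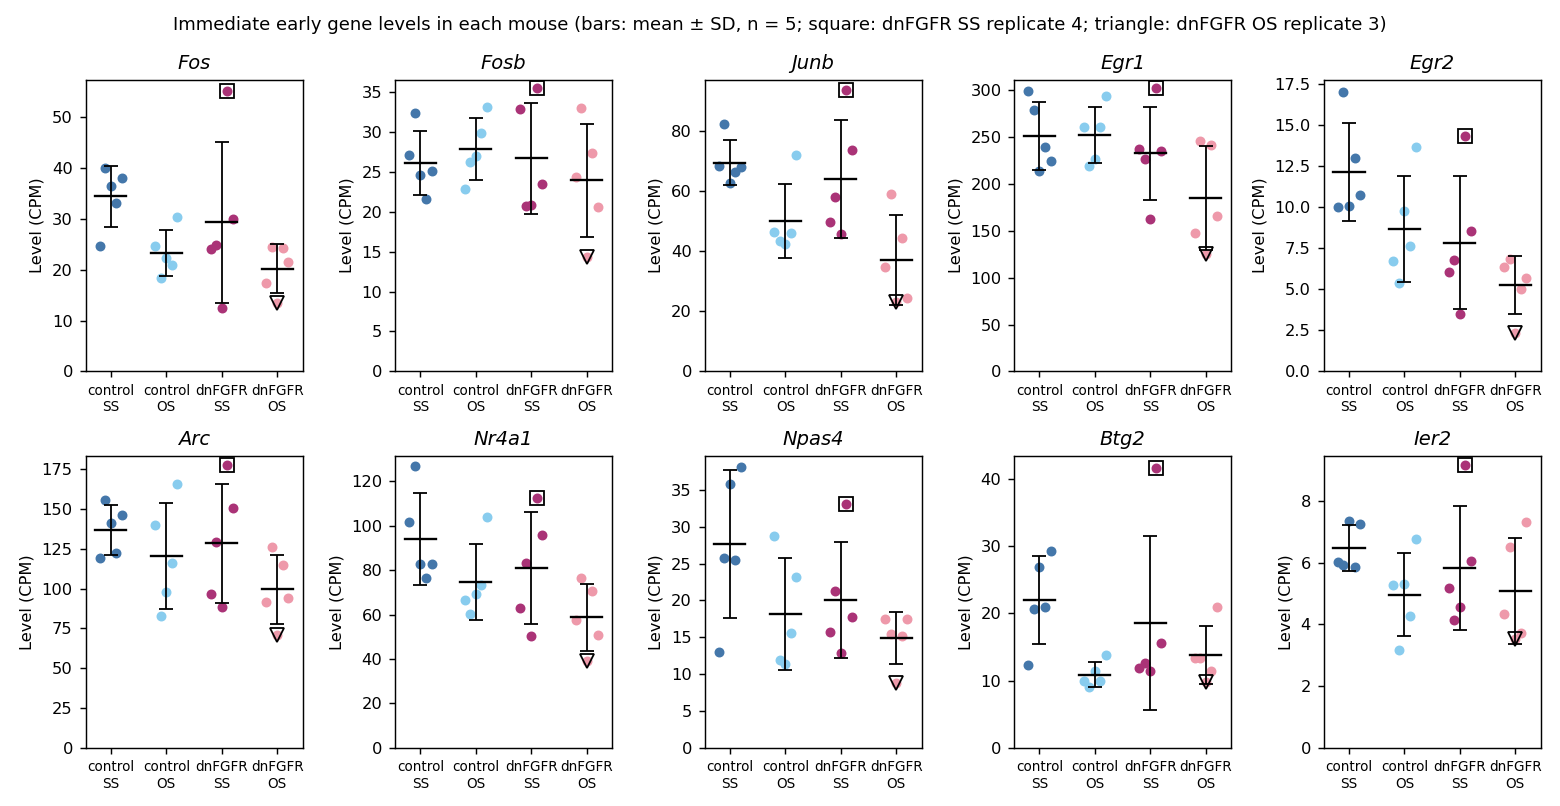
Level of each immediate early gene (CPM, linear axis from 0) in every mouse, by group, with the mean and SD of 5 mice as bars; a square marks dnFGFR SS replicate 4 and a triangle dnFGFR OS replicate 3. Btg2 lay between 12.4 and 29.3 CPM in control SS and between 9.08 and 13.8 CPM in control OS mice, and dnFGFR SS replicate 4 reached 41.6 CPM.

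Several settings changed which of these differences were called. Fos and Junb joined Btg2 with DESeq2 and with limma voom, which called 3 of the 10 genes each. Both tools also called more of all genes than edgeR did (counts in the closing section). Btg2 had been chosen for its call in this comparison, so these calls are descriptions. Btg2 was no longer called with all 4 groups in 1 fit, and its call was lost when any 1 of 8 mice was left out (control SS replicates 2 to 5 and control OS replicates 1 to 4), with log2 fold changes from -1.05 to -0.90. On the 2 sacrifice dates with SS and OS control mice, Btg2 was at 20.6 CPM in the SS mouse and at 9.08 to 11.4 CPM in 3 OS mice on the first date, and at 26.9 CPM in the SS mouse and 9.96 to 13.8 CPM in 2 OS mice on the second. On the first date the SS mouse was above all 3 OS mice for 9 of the 10 genes, Npas4 being the exception. That mouse, control SS replicate 2, had the highest mean standardized level of the 10 genes in its group (1.1). On the second date the SS mouse was above both OS mice for Fos, Npas4, Btg2 and Ier2. It lay between them for Junb, Egr2, Arc and Nr4a1, and below both for Fosb (24.5 against 29.9 and 33.2 CPM) and Egr1 (214 against 261 and 294 CPM).

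In dnFGFR mice, the question was whether the same genes differed with housing when FGF signaling in GnRH neurons was reduced. All 10 log2 fold changes (OS minus SS) were below 0, where 49.1% of the 16944 genes tested were, with a median of -0.43. None of the 10 passed an adjusted p of 0.1 by edgeR, beside 0% of all genes tested, and 1 of them, Junb, had an unadjusted p below 0.05, beside 6.72% of all genes. DESeq2 and limma voom also called 0 of the 10. For no gene were all OS mice below all SS mice, beside 0.696% of all genes. Control and dnFGFR housing effects come from different mice.

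Junb showed the largest difference. Its levels were 49.6, 57.9, 45.7, 93.5 and 73.5 CPM in dnFGFR SS mice and 34.6, 59.0, 23.2, 44.3 and 24.4 CPM in dnFGFR OS mice. The groups overlapped, with dnFGFR OS replicate 2 above 3 of the 5 SS mice. The log2 fold change was -0.79 (SE 0.256, edgeR adjusted p = 0.726).

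Fos was at 24.1, 24.9, 12.4, 55.2 and 30.0 CPM in dnFGFR SS mice and at 17.4, 24.5, 13.5, 24.4 and 21.5 CPM in dnFGFR OS mice (log2 fold change -0.53, SE 0.302, edgeR adjusted p = 0.768). Both the lowest and the highest level of Fos among the 20 mice were in dnFGFR SS. Btg2 was at 11.8, 12.6, 11.5, 41.6 and 15.6 CPM in dnFGFR SS mice and at 13.4, 13.3, 9.74, 11.5 and 21 CPM in dnFGFR OS mice (log2 fold change -0.43, SE 0.342, edgeR adjusted p = 0.821). Apart from replicate 4, the SS mice lay within the range of the OS mice. The other 7 genes had log2 fold changes from -0.58 (Egr2, SE 0.337) to -0.16 (Fosb, SE 0.212).

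The size of these differences moved with single mice. dnFGFR SS replicate 4 had the highest level of all 20 mice for 7 of the 10 genes and was among the 3 highest for all 10. Without it, the median log2 fold change was -0.20, and those of Btg2 and Ier2 were 0.10 (SE 0.196) and 0.025 (SE 0.234). Without both this mouse and dnFGFR OS replicate 5, the median was -0.20 and 9 of the 10 values were below 0, Fosb being the exception at 0.019. Within the 2 dates shared by both housings (6 mice, with date as a block), the median was -0.37, and Btg2 and Ier2 were again above 0, at 0.19 (SE 0.203) and 0.038 (SE 0.294). Junb kept the largest difference there, at -0.87 (SE 0.401).

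**Figure D2:**
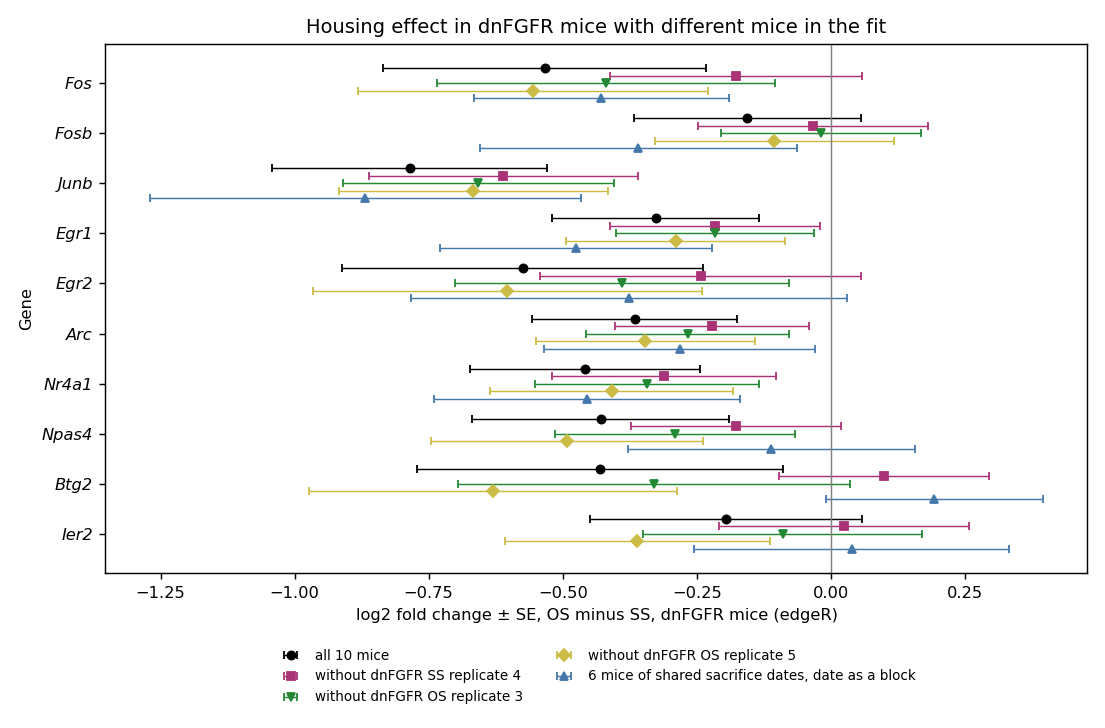
Log2 fold change (OS minus SS, horizontal axis) of each gene in dnFGFR mice with its SE, from all 10 mice, with 1 mouse left out, or from the 6 mice of shared sacrifice dates. Btg2 moved from -0.43 to 0.10 without dnFGFR SS replicate 4, and Junb stayed below 0 in each of the fits shown.

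Between genotypes, most means were lower in dnFGFR mice, by amounts that did not pass the test. These comparisons reuse the control mice above, and sacrifice date differed with genotype. Btg2 was chosen for its difference between the control groups, so its genotype values are descriptions, and the counts below include Btg2. In SS-housed mice, 9 of the 10 log2 fold changes (dnFGFR minus control) were below 0, beside 48.4% of 16992 genes tested, with a median of -0.19. This median was -0.37 without dnFGFR SS replicate 4 and -0.064 without dnFGFR SS replicate 3. edgeR called 0 of the 10 at an adjusted p of 0.1 (0.2% of all genes), 1 had an unadjusted p below 0.05 (8.63% of all genes), and DESeq2 and limma voom called 0. That gene was Egr2, which was at 12.2 ± 2.99 CPM in control SS and 7.86 ± 4.08 CPM in dnFGFR SS mice (SD, n = 5 each; log2 fold change -0.64, SE 0.274, edgeR adjusted p = 0.526). Complete separation, with dnFGFR below control, was seen for 0 of the 10 genes in SS mice (0.777% of all genes) and for 0 of the 10 in OS mice (0.702%).

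In OS-housed mice, 8 of the 10 were below 0, beside 50% of 16941 genes tested, with a median of -0.28 (-0.39 without control OS replicate 2 and -0.16 without dnFGFR OS replicate 3). Again edgeR, DESeq2 and limma voom called 0 of the 10 (0.0531% of all genes by edgeR), and Egr1 and Egr2 had an unadjusted p below 0.05 (7.02% of all genes). Egr1 was at 261, 219, 227, 261 and 294 CPM in control OS mice and at 148, 246, 125, 242 and 166 CPM in dnFGFR OS mice (log2 fold change -0.45, SE 0.169, edgeR adjusted p = 0.655). Of the dnFGFR OS mice, 3 lay below every control OS mouse and the other 2 lay within the control range. Egr2 differed by -0.72 (SE 0.284, edgeR adjusted p = 0.655). Btg2 differed in the other direction, at 0.35 (SE 0.189), a description because its choice drew on these control OS mice.

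The difference between the housing effects of both genotypes was tested in 1 fit over the 20 mice. None of the 10 genes was called by edgeR, DESeq2 or limma voom (0% of 17445 genes by edgeR), and 0 had an unadjusted p below 0.05 by edgeR (3.41% of all genes). edgeR adjusted p values lay between 0.963 and 0.995. The control difference that Btg2 was chosen for is also part of its value here, so for Btg2 this value is a description. Btg2 had the largest value, 0.59 (SE 0.426), from housing differences of -1.02 in control and -0.43 in dnFGFR mice. It was 1.12 without dnFGFR SS replicate 4 (SE 0.296, edgeR adjusted p = 0.844) and 0.40 without dnFGFR OS replicate 5. The SE of these values ran from 0.235 to 0.433. Of the 10 values, 6 were below 0 (49.9% of all genes). Their median was -0.10, and it was 0.14 without dnFGFR SS replicate 4 and 0.15 without both this mouse and dnFGFR OS replicate 5.

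**Figure D3:**
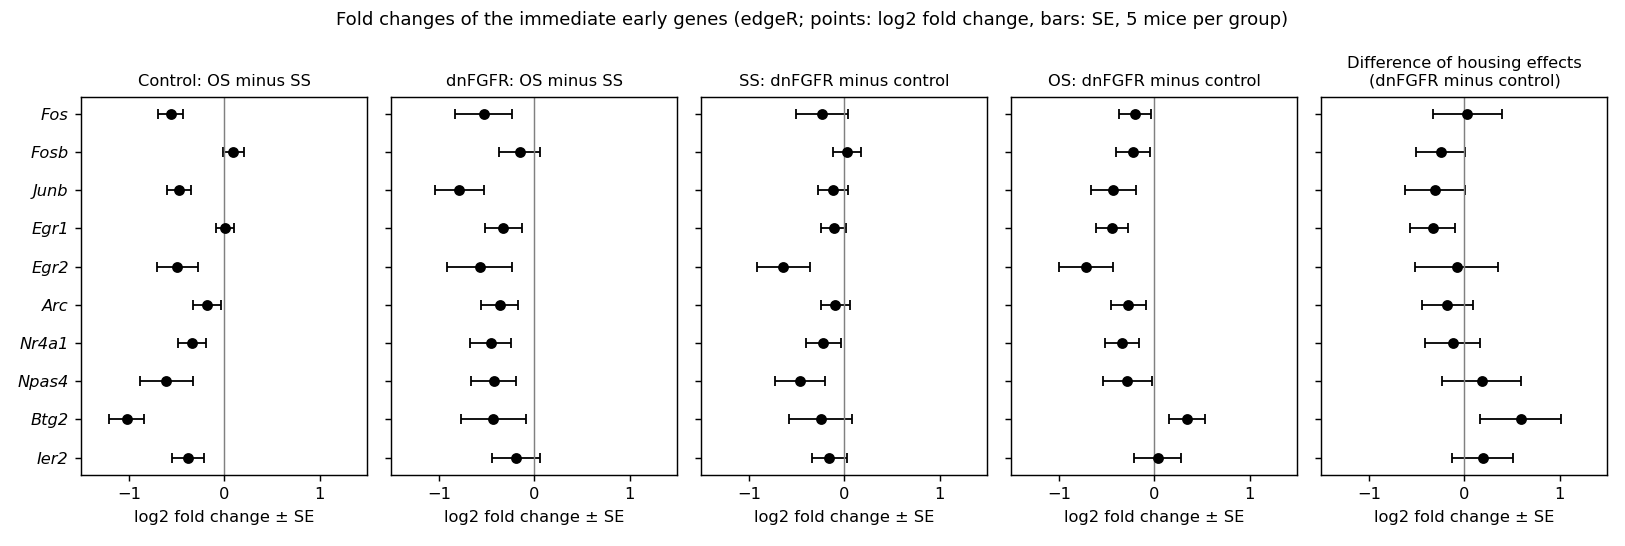
Log2 fold change and SE (horizontal axes) of the 10 genes in each of the 5 comparisons, from edgeR with 5 mice per group. Btg2 lay at -1.02 in control housing and at -0.43 in dnFGFR housing, and all 10 points lay below 0 in dnFGFR housing.

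The immediate early genes varied more between mice of 1 group than most genes did. The within-group SD of log2 CPM was between 0.301 (Egr1) and 0.566 (Egr2), beside a median of 0.183 over all genes. Among genes of the same level (deciles of mean level), between 82.2% (Ier2) and 99.1% (Junb) had a smaller SD. Btg2 in dnFGFR SS mice had the largest coefficient of variation, 69.6%, and Junb in control SS mice the smallest, 10.8%.

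Much of this variation was shared between the genes. After group means were removed, all 45 pairs of genes had a Pearson r above 0 over the 20 mice, with a median of 0.699 and a range from 0.233 to 0.898. The median Spearman rho was 0.627. An r of at least 0.5 was reached by 33 pairs (73.3%), beside 9.2% of all pairs among 17445 genes. All genes of a mouse share its library, its dissection and its date. The first principal component of the 10 genes held 68.2% of their variance and the second 15.7%.

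**Figure D4:**
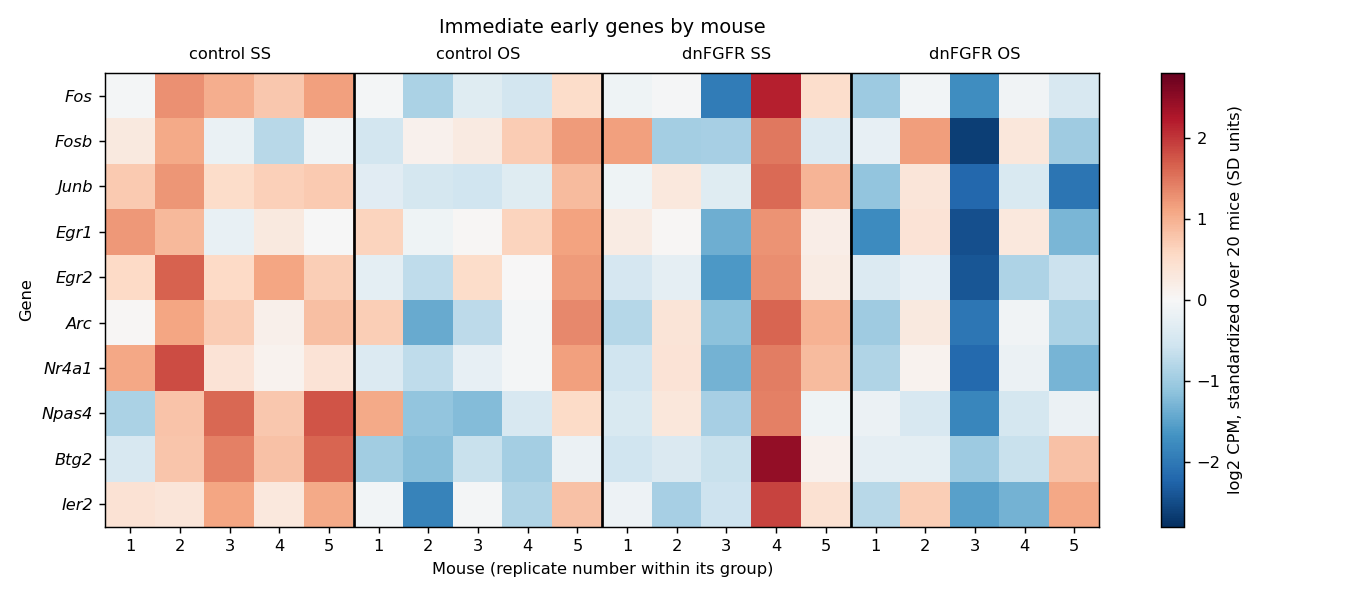
Level of each gene (rows) in each mouse (columns, by group), as log2 CPM standardized over the 20 mice (color, SD units). dnFGFR SS replicate 4 was highest of the 20 mice for 7 genes and dnFGFR OS replicate 3 was lowest for 7 genes.

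The correlations were lower without the mice at both ends of the range. dnFGFR OS replicate 3 was lowest of the 20 mice for 7 genes and among the 3 lowest for all 10, opposite to dnFGFR SS replicate 4. Without these 2 mice, the median r was 0.476 and 22 pairs reached 0.5. With sacrifice date means removed instead, the median was 0.670.

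Within the class, the genes fell along a gradient. Junb and Nr4a1 were the closest pair (r = 0.898), and Egr1 was closest to Nr4a1 (r = 0.842). Btg2 was closest to Ier2 (r = 0.782), Fos and Npas4, and farthest from Egr1 (r = 0.233). Without the 2 mice at the ends, Junb and Nr4a1 were still at 0.85, and Btg2 and Egr1 were at -0.32. With the mean of the other 9 genes, Fos had the highest correlation over 20 mice (r = 0.918) and Npas4 the lowest (r = 0.632), and without the 2 mice Arc had the highest (r = 0.883) and Btg2 the lowest (r = 0.298).

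**Figure D5:**
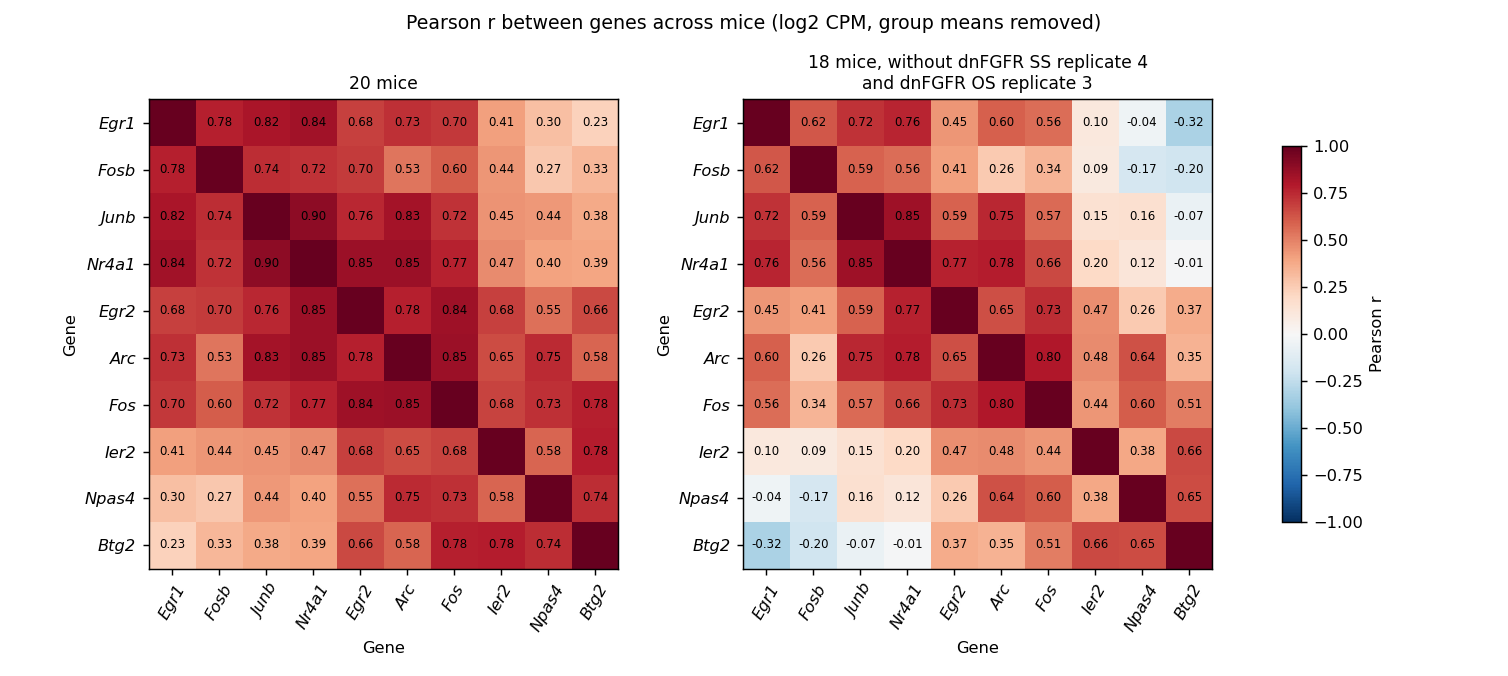
Pearson r between each pair of the 10 genes across mice, from log2 CPM with group means removed, over 20 mice (left) and over 18 mice without dnFGFR SS replicate 4 and dnFGFR OS replicate 3 (right). The median fell from 0.699 to 0.476, and Junb with Nr4a1 remained the closest pair.

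Outside the 10 genes, the genes with the pattern most like their mean were Ccn1 (r = 0.873), a secreted matrix protein induced by growth factors, Bcl7a (r = 0.842), a subunit of a chromatin remodeling complex, Pak6 (r = 0.836), a kinase, Dusp1 (r = 0.835), a phosphatase that inactivates MAP kinases, and Dtnb (r = 0.829), a dystrobrevin. These r are over 20 mice with group means removed, and 3.58% of 17435 other genes reached 0.5. Spearman rho for the 5 genes ran from 0.513 (Dtnb) to 0.895 (Ccn1). Without the 2 mice at the ends, r was 0.773 for Ccn1, 0.656 for Bcl7a, 0.735 for Pak6, 0.759 for Dusp1 and 0.63 for Dtnb. Over the 20 mice, 10 of 38 other rapid immediate early genes reached 0.5, Ccn1 and Dusp1 among them, and the median was 0.355. Medians were 0.277 for 20 later activity-induced genes and 0.297 for 29 upstream transcription factors, coactivators and kinases.

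None of the 38 other rapid immediate early genes was called by edgeR in any of the 5 comparisons. In control housing 7 of the 38 had an unadjusted p below 0.05, beside 7.2% of all genes. DESeq2 called 3 (Errfi1 and Maff higher and Dusp1 lower in OS mice) and limma voom 2 (Maff higher and Dusp1 lower). Both tools called more of all genes there than edgeR did (counts in the closing section). In SS mice between genotypes, 7 had an unadjusted p below 0.05, beside 8.63% of all genes. DESeq2, which also called more of all genes there than edgeR did, called 2 (Tob2 and Maff, both higher in dnFGFR mice) and limma voom 0. In the other comparisons 1 to 3 had an unadjusted p below 0.05, and DESeq2 and limma voom called 0. In control mice, Dusp1 was at 38.0 ± 6.01 CPM in control SS and at 25.5 ± 5.94 CPM among control OS mice (SD, n = 5; log2 fold change -0.58, SE 0.138, edgeR adjusted p = 0.212). Maff, a small Maf transcription factor, was at 1.23 ± 0.615 and 2.84 ± 0.356 CPM (log2 fold change 1.20, SE 0.276, edgeR adjusted p = 0.192). The median over the 38 genes was -0.01 in control housing, where 20 of the 38 were below 0, beside 49.1% of all genes. In dnFGFR housing the median was -0.15 and 35 of the 38 were below 0, beside 49.1% of all genes. There 1 had an unadjusted p below 0.05, beside 6.72%. Neither the later nor the upstream genes had a gene called by edgeR, DESeq2 or limma voom in any comparison, with 0 to 3 of the later and 0 to 5 of the upstream genes at an unadjusted p below 0.05, where 3.41% to 8.63% of all genes were. Of the 29 upstream genes in dnFGFR housing, 5 had an unadjusted p below 0.05, among them Srf, serum response factor, with a mean of 73.3 ± 3.85 CPM under SS housing and of 57.5 ± 12.9 CPM under OS housing (SD, n = 5; log2 fold change -0.35, SE 0.127, edgeR adjusted p = 0.726).

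Some genes induced by glucocorticoids were higher in control OS than in control SS mice. In control housing 5 of 17 tested were higher in OS mice by edgeR, namely Hif3a, Tsc22d3, Pdk4, Gjb6 and Sgk1, and 0 were lower. Over all genes tested, edgeR called 0.124%. Hif3a, a hypoxia-inducible factor subunit, had a log2 fold change of 1.47 (SE 0.195, edgeR adjusted p = 0.0233), and Tsc22d3, which encodes the glucocorticoid-induced leucine zipper, one of 0.69 (SE 0.0946, edgeR adjusted p = 0.0233). DESeq2 called 9 and limma voom 6, all higher, and both tools called more of all genes than edgeR did. The median log2 fold change of the 17 was 0.52. Between genotypes in SS mice, which reuses the control SS mice, all 17 were above 0 with a median of 0.52. Of these, 13 had an unadjusted p below 0.05, beside 8.63% of all genes. There edgeR (0.2% of all genes) and limma voom called 0 of the 17. DESeq2 called 7, and it called more of all genes than edgeR did. In dnFGFR housing, the median of the 17 was 0.091, and 0 had an unadjusted p below 0.05, beside 6.72% of all genes. Between genotypes in OS mice, the median was 0.17, and 2 had an unadjusted p below 0.05, beside 7.02%. In both comparisons edgeR (0% and 0.0531% of all genes), DESeq2 and limma voom called 0 of the 17. The list was drawn up with the increase of Hif3a and Tsc22d3 known, so these counts and p-values are descriptions and not a test of the list. Across the 20 mice all 17 had a negative r with the mean of the immediate early genes (median -0.448, beside 0.028 over 17435 other genes). By Spearman rho, Arl4d (0.003) and Mt1 (0.068) were above 0. Without the 2 mice at the ends, the r was above 0 for Arl4d (0.128), Mt1 (0.081), Nfkbia (0.042) and Mt2 (0.0125). The r of the summed level of the list was -0.453 over 20 mice and -0.167 without the 2 mice. The part of these glucocorticoid-induced genes in the housing differences was not tested.

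Marker sums of other cell types also moved with the immediate early genes from mouse to mouse. The sum of 4 choroid plexus markers (Ttr, Kl, Folr1 and Clic6) had an r of -0.661 with the mean of the 10 genes (-0.551 without the 2 mice at the ends), and ranged from 34.5 to 1059 CPM in control SS and from 50.8 to 1920 CPM in control OS mice. In dnFGFR mice it ranged from 36.8 to 1579 CPM under SS and from 35.9 to 2138 CPM under OS housing. The sum of 4 oligodendrocyte markers had an r of -0.658 (-0.401 without the 2 mice) and ranged from 4863 to 6013 CPM in control SS, from 5089 to 6613 CPM in control OS, from 3816 to 5551 CPM in dnFGFR SS and from 3766 to 5916 CPM in dnFGFR OS mice. The r was -0.615 for the preoptic sum (-0.524 without the 2 mice) and 0.310 for the striatal sum, which was -0.143 without them. All 7 striatal markers had log2 fold changes below 0 in both housing and both genotype comparisons, with medians of -0.09 in control and -0.21 in dnFGFR housing, -0.19 between genotypes in SS and -0.28 in OS mice. Of the 7, 3, 2, 5 and 5 had an unadjusted p below 0.05 in these comparisons, in that order. The shares over all genes were 7.2%, 6.72%, 8.63% and 7.02%. No marker of these lists was below 0.1 CPM in all mice. The part of sample composition in the differences was not tested.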

How the data were processed

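POA RNA from 20 male mice was sequenced, and reads were aligned with HISAT2 to GRCm38 and counted per gene with Rsubread. The authors deposited whole-number counts per gene without normalization for 25239 genes. The table held 20 further columns that match no sample here, and these were not used. Strand and multi-mapping options are not given in the sources used here. Counts were tested with edgeR 4.0.16 in R 4.3.3 (quasi-likelihood test, TMM, filterByExpr with a minimum count of 10), each comparison on its own groups, with Benjamini-Hochberg adjustment over all genes tested and a threshold of 0.1. CPM used TMM factors over the 20 mice, and log2 CPM a prior count of 2. Correlations were computed in Python 3.11.15 after group means were removed. Alternatives were DESeq2 1.42.0, limma 3.58.1 (voom with quality weights), no filter, RLE size factors, a threshold of 0.05, all 4 groups in 1 fit, a replicate block, sacrifice dates and each mouse left out; leaving out 2 mice together was added after seeing the data. The fits were tested on simulated data. Exon lengths came from GENCODE (GRCm38) and promoters from RefSeq (GRCm38.p6).

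Named genes were the 10 members, from each list the genes called and the 2 of smallest p in a comparison (those the text needed are given), and the 5 genes of most like pattern. Members and lists were chosen with earlier results of these data known. With 5 mice per group, p-values measure the spread between the mice sampled.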

Additional observations from a re-analysis of the deposited data

Results flagged for a closer look

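In each group of 5 mice, a level was marked where the gap between the highest or lowest mouse and its nearest neighbour took up more than 0.71 of the group's range. Of 40 sets of gene and group, 4 were marked, and chance marks about 1 in 20. Junb was at 82.3 CPM in control SS replicate 2, the highest of its group, and at 71.9 CPM in control OS replicate 5, where the other 4 mice lay between 42.5 and 46.2 CPM. Without the latter, the Junb log2 fold change in control housing moved from -0.48 to -0.65. Btg2 was at 41.6 CPM in dnFGFR SS replicate 4, and the next highest mouse of that group was at 15.6 CPM. Npas4 was at 8.86 CPM in dnFGFR OS replicate 3, the lowest of its group.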

How the results depend on the processing

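In control housing, 21 genes were called (1 of the 10), 161 (3) with DESeq2, 66 (3) with limma voom, 6 (0) at an adjusted p below 0.05, 0 (0) with all 4 groups in 1 fit and 1 (1) within sacrifice dates; with 1 mouse left out, 0 to 32 (0 to 3). In dnFGFR housing, DESeq2 called 14 genes and edgeR 0. Between genotypes in SS mice, edgeR called 34, DESeq2 235, and 21 to 70 were called with 1 mouse left out. In OS mice, edgeR called 9, DESeq2 88, limma voom 27, a threshold of 0.05 left 5, 1 fit over all groups gave 45, and 3 to 16 were called with 1 mouse left out. In these comparisons and the interaction, 0 of the 10 genes were called under every alternative run. The median correlation was 0.476 without the 2 farthest mice and 0.613 to 0.718 with 1 mouse left out. The causes were not tested.

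Replicate numbers did not pair the mice: same-numbered mice had correlations of deviations from -0.235 to 0.258. With the number as a replicate block, 23 genes (1 of the 10) were called in control housing and 3 between genotypes in OS mice.

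In the tested comparisons, fold changes of single genes changed sign under alternatives 31 times, all between values not called. In control housing, given without a test, Egr1 ran from -0.056 without control OS replicate 5 to 0.077 without control SS replicate 1, and Fosb was at -0.030 within dates. In dnFGFR housing these were Btg2 (0.19) and Ier2 (0.038) within dates, and, with 1 or 2 mice left out, Btg2 (-0.63 to 0.099), Ier2 (-0.36 to 0.025) and Fosb (-0.295 to 0.019). Between genotypes, Fosb in SS mice was at -0.080 and Ier2 in OS mice at -0.21 with limma voom, and with mice left out the ranges were -0.096 to 0.12 for Fosb, -0.24 to 0.013 for Arc and -0.14 to 0.17 for Ier2. In the interaction the ranges were -0.15 to 0.39 for Fos, -0.255 to 0.25 for Egr2 and -0.24 to 0.074 for Nr4a1.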
